A study of Homo sapiens with 4 samples.

Results

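The Nodal, TGF-beta and BMP pathway was followed in H9 human embryonic stem cells through 47 genes for its ligands, coreceptor, receptors, SMAD proteins, antagonists and feedback targets. The members were taken by symbol from the 60483 gene identifiers counted in each library, and each of the 47 matched 1 identifier. H9, also called WA09, is an established line. The design holds 2 libraries of H9 cells with SLC35F2 knocked out (KO) and 2 libraries of control H9 cells, all from RNA made into poly(A)-selected libraries. SLC35F2 is a membrane transporter of the solute carrier superfamily. No other genotype or treatment is given, and neither the method of the knockout nor the nature of the control is stated. Nothing states that replicates of a genotype are independent cultures or clones, and a p-value here reflects only how far these libraries lie apart, which may be technical.

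Ligands of the TGF-beta superfamily bind paired type I and type II receptor kinases, which phosphorylate receptor-regulated SMAD proteins. SMAD2 and SMAD3 carry the Nodal, activin and TGF-beta signal, SMAD1, SMAD5 and SMAD9 carry the BMP signal, and both groups enter the nucleus with SMAD4. In primed human pluripotent cells activin or Nodal signalling is known to sustain NANOG expression and self-renewal, while added BMP4 drives the cells towards amnion-like, trophoblast-like or mesodermal fates. The ID genes, SMAD6 and BAMBI are textbook targets of BMP signalling and are called the BMP arm readouts here. NODAL, LEFTY1, LEFTY2, CER1, SKIL, SMAD7 and PMEPA1 respond to Nodal, activin or TGF-beta and are called the Nodal/activin arm readouts. SMAD7 and BAMBI can respond to both branches.

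Reads assigned to genes numbered 27824693 in KO 1 and 36943597 in KO 2, against 37978705 in control 1 and 32423108 in control 2. Levels are given as CPM, the reads of a gene per 1000000 reads of its library after scaling. The targeted gene, SLC35F2, had 12.1 CPM in KO 1 and 9.65 CPM in KO 2, against 41.1 CPM in control 1 and 27.1 CPM in control 2 (log2 fold change -1.65, SE 0.35). Both KO libraries stood on the side their label gives. The adjusted p over all genes was 0.58 in edgeR, above the threshold of 0.05, and 0.00843 in DESeq2, which called it. The pluripotency genes POU5F1, SOX2, NANOG, LIN28A, DNMT3B, ZFP42, SALL4 and DPPA4 were present in every library, with a summed level of 5748 CPM in KO 1 and 3973 CPM in KO 2, against 5180 CPM in control 1 and 4822 CPM in control 2. NANOG alone had 46.2 CPM in KO 1 and 19.1 CPM in KO 2, against 61.2 CPM in control 1 and 64.7 CPM in control 2. It was lower in both KO libraries, where 16.3% of all genes were (log2 fold change -0.95, SE 0.40). NANOG was not called (edgeR unadjusted p = 0.0438, adjusted p = 0.997).

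The promoters of 4 of the 6 BMP arm readouts are shown, since a reader may want the DNA that lies before their starts. They are not the 4 with the clearest change. SMAD6 is shown although its groups overlapped, and ID3, whose groups did not overlap, is not shown. BAMBI and SMAD6 are the only windows of the 6 that held a motif searched. The windows are RefSeq sequences on GRCh38.p14, each read 5′ to 3′ on the gene's own strand, from the 250 bases before the RefSeq start, and for BAMBI the first 90 of those. GENCODE 29, which gives the gene positions below, starts ID1 and SMAD6 slightly earlier than RefSeq, and BAMBI within the 90 bases shown. So 6, 8 and 19 bases at the 3′ end of the ID1, SMAD6 and BAMBI stretches lie in its exons. The rest of the 250-base BAMBI window, which is not shown, lies after the GENCODE start of that gene. The SMAD6 motif and the last BAMBI motif span the GENCODE starts. Capitals mark matches to GGCGCC, a GC-rich element bound by BMP-regulated SMADs, to GTCTAGAC, the palindromic SMAD box, or to CAGACA or its reverse complement TGTCTG, the core of the CAGA box bound by SMAD3 and SMAD4. Both strands were searched, and no motif contains another.
ID1 (chr20:31605039-31605288, plus strand): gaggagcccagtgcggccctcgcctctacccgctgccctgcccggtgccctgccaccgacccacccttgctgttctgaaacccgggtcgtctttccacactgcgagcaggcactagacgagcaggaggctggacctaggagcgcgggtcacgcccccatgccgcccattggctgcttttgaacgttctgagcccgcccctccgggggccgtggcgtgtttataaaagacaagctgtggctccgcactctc
ID4 (chr6:19837120-19837369, plus strand): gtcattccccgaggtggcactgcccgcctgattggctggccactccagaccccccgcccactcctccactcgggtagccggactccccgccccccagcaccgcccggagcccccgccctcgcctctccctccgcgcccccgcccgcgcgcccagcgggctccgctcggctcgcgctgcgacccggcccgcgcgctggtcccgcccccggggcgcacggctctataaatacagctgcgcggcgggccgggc
BAMBI (chr10:28677271-28677360, plus strand): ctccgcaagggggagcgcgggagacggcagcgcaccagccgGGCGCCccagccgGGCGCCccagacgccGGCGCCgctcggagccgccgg
SMAD6 (chr15:66701986-66702235, plus strand): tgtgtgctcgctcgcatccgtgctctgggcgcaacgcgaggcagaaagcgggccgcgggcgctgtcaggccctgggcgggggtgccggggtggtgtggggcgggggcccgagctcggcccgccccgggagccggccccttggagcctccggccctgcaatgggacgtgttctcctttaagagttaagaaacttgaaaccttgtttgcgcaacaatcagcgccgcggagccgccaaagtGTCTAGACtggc
BAMBI held GGCGCC 3 times in its 250-base window, a motif present on either strand in 16.4% of 35116 promoter windows of this length. SMAD6 held the palindrome GTCTAGAC once, its first base 12 bases before the RefSeq start, which 0.182% of the windows share. The windows of ID1, ID2, ID3 and ID4 held none of the motifs searched, and CAGACA, present in 13.6% of all windows, was in none of the 6 BMP arm windows. These matches describe letters within 250 bases and say nothing of binding. The BMP response element known for ID1 lies further upstream than this window.

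Across the pathway, no member passed the adjusted threshold in edgeR. By median log2 fold change the BMP arm readouts lay lowest in KO, with the Nodal/activin ligands and coreceptor next. Read counts sufficed to test 46 of the 47 members. In edgeR's quasi-likelihood test 0 were called, with 0.0263% of all 19027 genes tested called. At an unadjusted p under 0.05 there were 10 members (21.7%), against 4.06% of all genes. DESeq2 called 4 members, BAMBI, ID1, ID4 and SMAD7, each lower in KO, where 0.357% of all genes it tested were called and 0.333% were called as lower, and limma-voom called 0. The KO and control libraries did not overlap for 22 members (47.8%), of which 11 were lower in KO and 11 higher, and for 32.2% of all genes, 16.3% lower and 15.8% higher. The median log2 fold change was 0.01 over the members and 0.03 over all genes tested. By role, the median was -1.43 for the 4 ID genes, -1.22 for the 6 Nodal/activin ligands and coreceptor, -0.31 for the 3 BMP ligands and -0.37 for the 8 inhibitors and feedback genes. It was 0.48 for the 6 signal-carrying SMADs, 0.19 for the 7 activin and BMP receptors, 0.16 for the 6 TGF-beta ligands and receptors and 0.49 for the 4 Nodal/activin antagonists.

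**Figure D1:**
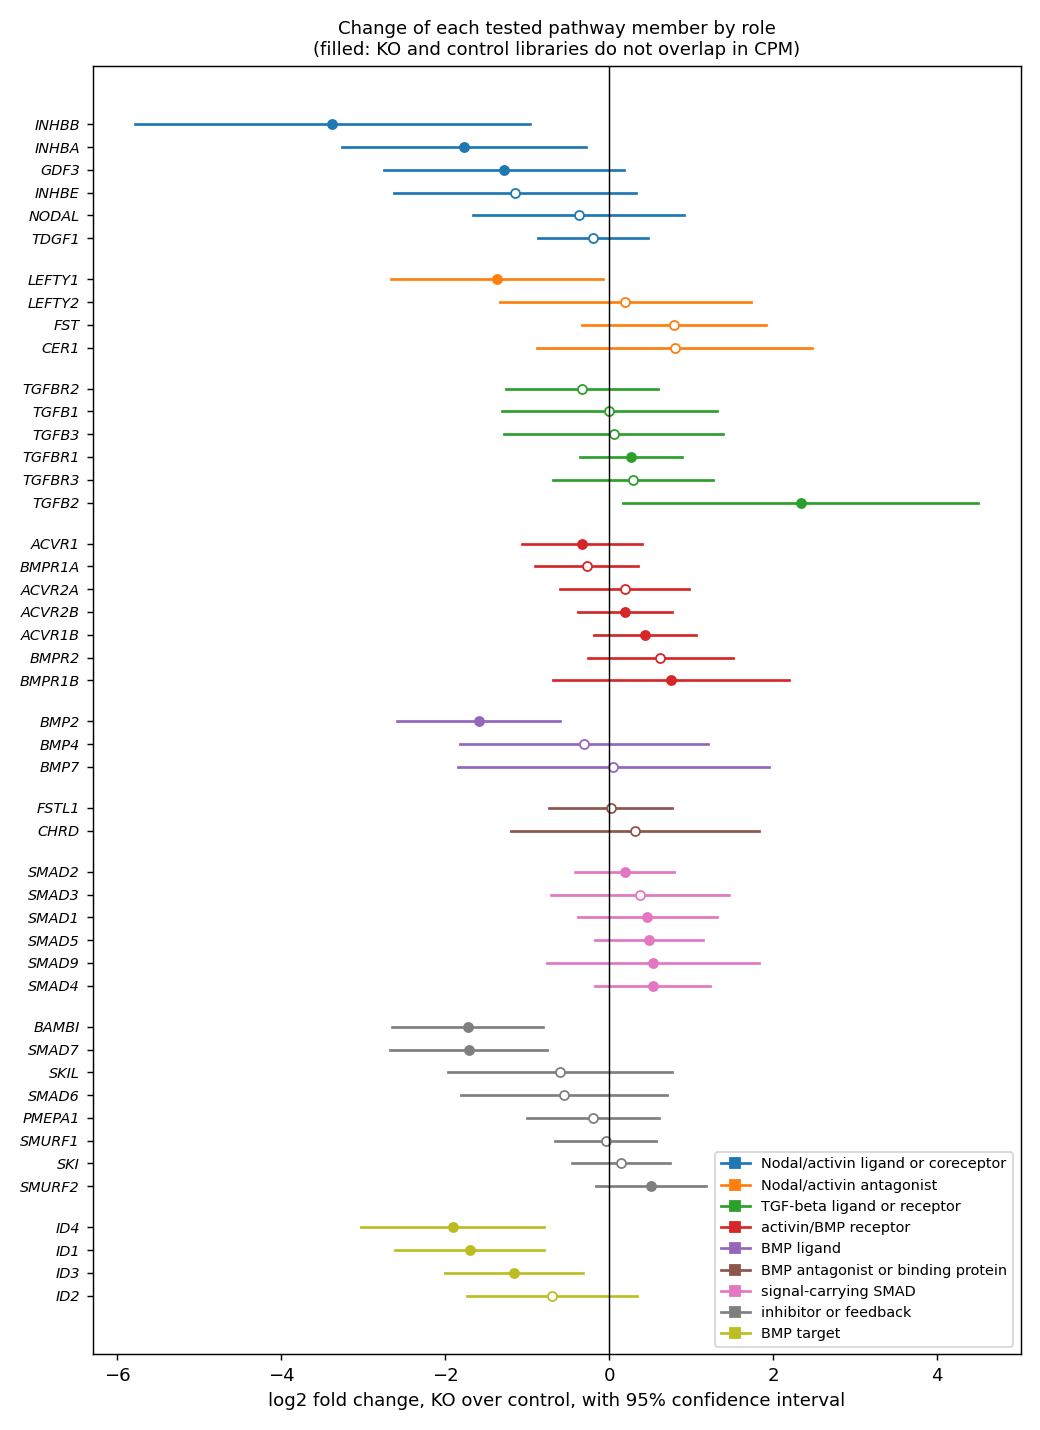
Log2 fold change of KO over control for each of the 46 tested members with its 95% confidence interval from edgeR, grouped and coloured by role, with filled points where the KO and control libraries did not overlap in CPM. All 4 ID genes lie left of 0, while all 6 signal-carrying SMADs lie right of 0 with intervals that include 0.

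The ID genes encode small proteins that bind basic helix-loop-helix factors and keep them off DNA, and they are direct targets of BMP-regulated SMADs. ID1 (ENSG00000125968.8, chromosome 20, 31605283 to 31606515, plus strand of GRCh38, protein coding) had 29.9 CPM in KO 1 and 52.8 CPM in KO 2, against 92.8 CPM in control 1 and 177 CPM in control 2. Both KO libraries were below both controls, and the higher KO library stood at 56.9% of the lower control. The means were 41.4 ± 16.2 CPM in KO and 135 ± 59.4 CPM in control (SD, n = 2 each), a log2 fold change of -1.70 with a 95% interval from -2.62 to -0.79 (edgeR adjusted p = 0.808, DESeq2 adjusted p = 0.039). In bulk RNA fewer cells that express a gene and less RNA per cell cannot be told apart.

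ID4 (chromosome 6, 19837386 to 19840684, plus strand) had the lowest fold change of the family. Its level was 6.66 CPM in KO 1 and 11.1 CPM in KO 2, against 19.1 CPM in control 1 and 47.7 CPM in control 2, so the groups did not overlap. The log2 fold change was -1.91 ± 0.49 (SE), with an edgeR adjusted p of 0.997 and a DESeq2 adjusted p of 0.0468. ID3 (chromosome 1, 23557918 to 23559794, minus strand) had 128 CPM in KO 1 and 105 CPM in KO 2, against 165 CPM in control 1 and 355 CPM in control 2. Here the gap to control 1 was small, since KO 1 reached 77.5% of it (log2 fold change -1.16 ± 0.37, edgeR adjusted p = 0.997, DESeq2 adjusted p = 0.564). ID2, with 33.5 CPM in KO 1 and 49.1 CPM in KO 2, against 36.4 CPM in control 1 and 97.4 CPM in control 2, overlapped between the groups (log2 fold change -0.69 ± 0.45, edgeR adjusted p = 0.997), and its value was 0.18 without control 2. The 4 ID genes together summed to 198 CPM in KO 1 and 218 CPM in KO 2, against 314 CPM in control 1 and 677 CPM in control 2. Control 2 thus held the highest level of each ID gene, 1.90-fold (ID1) to 2.67-fold (ID2) above control 1.

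BAMBI encodes a pseudoreceptor that lacks a kinase domain and dampens TGF-beta family signalling. It lies at chromosome 10, 28677342 to 28682939, on the plus strand. BAMBI had 7.16 CPM in KO 1 and 6.79 CPM in KO 2, against 16.5 CPM in control 1 and 29.6 CPM in control 2. The KO libraries were close to each other, and the higher one stood at 43.5% of the lower control (log2 fold change -1.72 ± 0.41, edgeR adjusted p = 0.808, DESeq2 adjusted p = 0.0171). SMAD6, an inhibitory SMAD that acts mainly on BMP receptors, had 1.96 CPM in KO 1 and 4.42 CPM in KO 2, against 3.58 CPM in control 1 and 5.94 CPM in control 2. Its groups overlapped, with a log2 fold change of -0.55 ± 0.55, an interval from -1.81 to 0.71 and an edgeR adjusted p of 0.997.

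**Figure D2:**
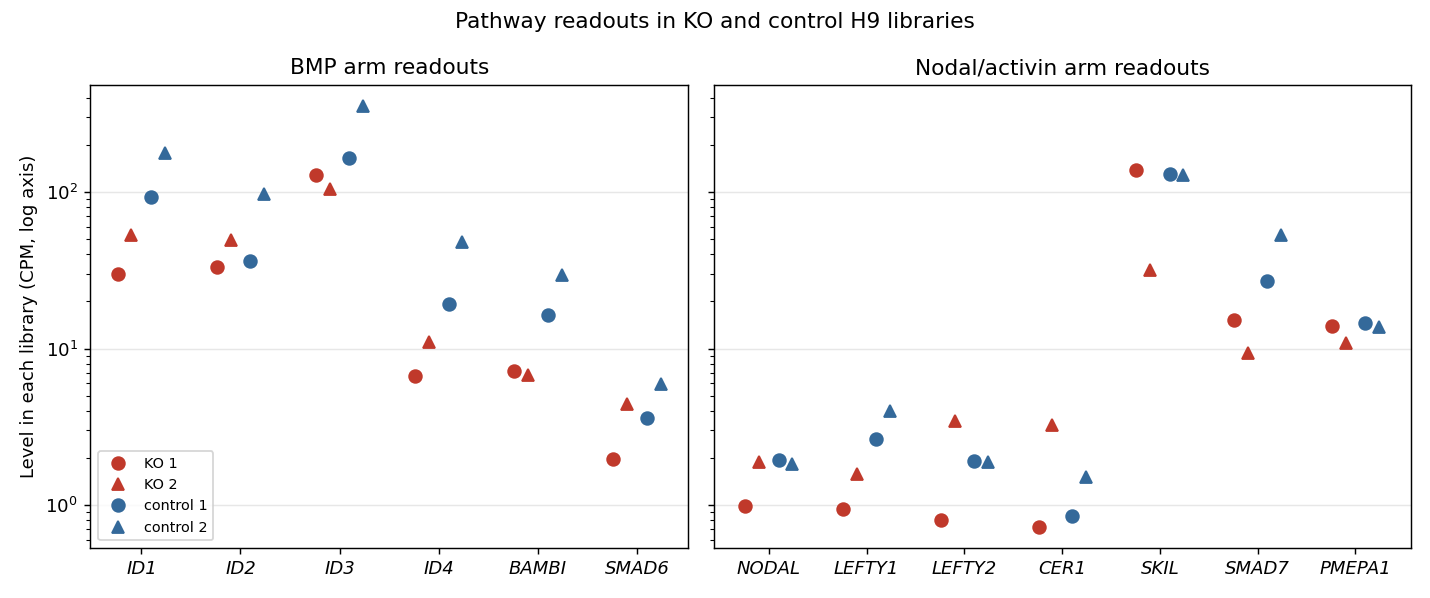
Level in CPM on a log axis for the 6 BMP arm readouts (left) and the 7 Nodal/activin arm readouts (right), with 1 point per library, KO in red and control in blue, circles for replicate 1 and triangles for replicate 2. ID1, ID3, ID4 and BAMBI have both red points below both blue points, whereas for SKIL the KO 2 point alone stands below the other libraries.

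The Nodal/activin arm readouts did not share a direction. SMAD7, the inhibitory SMAD that blocks type I receptors, had 15.2 CPM in KO 1 and 9.39 CPM in KO 2, against 27.1 CPM in control 1 and 53.3 CPM in control 2. Both KO libraries were lower (log2 fold change -1.71 ± 0.42, edgeR adjusted p = 0.937, DESeq2 adjusted p = 0.049). LEFTY1, a secreted antagonist of Nodal induced by the pathway itself, had 0.946 CPM in KO 1 and 1.58 CPM in KO 2, against 2.65 CPM in control 1 and 3.997 CPM in control 2 (log2 fold change -1.37 ± 0.57, edgeR adjusted p = 0.997). These levels rest on 26 and 54 reads in KO and on 100 and 142 reads in control.

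LEFTY2, its close paralog, had 0.80 CPM in KO 1 and 3.42 CPM in KO 2, against 1.91 CPM in control 1 and 1.89 CPM in control 2 (log2 fold change 0.20 ± 0.67, edgeR adjusted p = 0.997). CER1, a secreted Nodal and BMP antagonist, had 0.727 CPM in KO 1 and 3.25 CPM in KO 2, against 0.848 CPM in control 1 and 1.52 CPM in control 2 (log2 fold change 0.80 ± 0.74, edgeR adjusted p = 0.997). For both genes the controls lay between the 2 KO libraries. NODAL, the ligand, had 0.982 CPM in KO 1 and 1.87 CPM in KO 2, against 1.93 CPM in control 1 and 1.83 CPM in control 2 (log2 fold change -0.37 ± 0.57, edgeR adjusted p = 0.997). PMEPA1, a membrane protein that sequesters SMAD2 and SMAD3, had 13.9 CPM in KO 1 and 10.8 CPM in KO 2, against 14.6 CPM in control 1 and 13.7 CPM in control 2 (log2 fold change -0.20 ± 0.36, edgeR adjusted p = 0.997).

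SKIL, the SnoN corepressor of SMAD complexes, was low in a single library. It had 140 CPM in KO 1 and 31.9 CPM in KO 2, against 130 CPM in control 1 and 129 CPM in control 2. Without KO 2 its log2 fold change was 0.11 and without KO 1 it was -2.01 (edgeR adjusted p = 4.06e-05), so the value over all libraries, -0.60 ± 0.59 (edgeR adjusted p = 0.997), rests on KO 2. SKI, the related corepressor, had 107 CPM in KO 1 and 97.9 CPM in KO 2, against 99.6 CPM in control 1 and 85.5 CPM in control 2.

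Set side by side, the 6 BMP arm readouts had a median log2 fold change of -1.43 and the 7 Nodal/activin arm readouts one of -0.37, with 0.03 over all genes. In the BMP arm 6 of 6 values were negative and 4 were lower in both KO libraries, and in the Nodal/activin arm 5 of 7 were negative and 2 were lower in both, where 16.3% of all genes were lower in both. Without control 2 the value of ID2 turned positive. A negative sign was not particular to the BMP arm. The Nodal/activin ligands and coreceptor were negative in 6 of 6 too, with a median of -1.22, and of these only NODAL is among the arm readouts. NODAL, INHBE and TDGF1 changed sign with some library left out. As the mean log2 difference of an arm's genes from the control mean, the BMP arm stood at -1.47 in KO 1 and -0.99 in KO 2, against -0.53 in control 1 and 0.53 in control 2. The Nodal/activin arm stood at -0.81 in KO 1 and -0.45 in KO 2, against -0.15 in control 1 and 0.15 in control 2. The difference between the arms was not tested. The size of the BMP arm value depends on control 2, since its median was -0.81 without control 2 and -1.84 without control 1. That of the Nodal/activin arm was -0.93 without KO 2 and between -0.42 and -0.33 without any other library.

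With each library left out in turn, the log2 fold changes of ID1, ID4, BAMBI and SMAD7 stayed negative, with values of -1.17, -1.11, -1.24 and -1.14 without control 2 in that order. Without either KO library these 4 genes were called by edgeR. Such fits take the spread of the single remaining KO library from the controls. Without KO 1, 12 members were called, with 5.31% of all genes called and 2.96% called as lower in KO. Without KO 2, 5 members were called, with 0.927% of all genes called and 0.843% called as lower in KO. Without either control none of the 4 was called, with adjusted p-values of 0.577 to 1. ID3 had -0.51 without control 2 and was called without KO 1 alone (adjusted p = 0.0204).

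**Figure D3:**
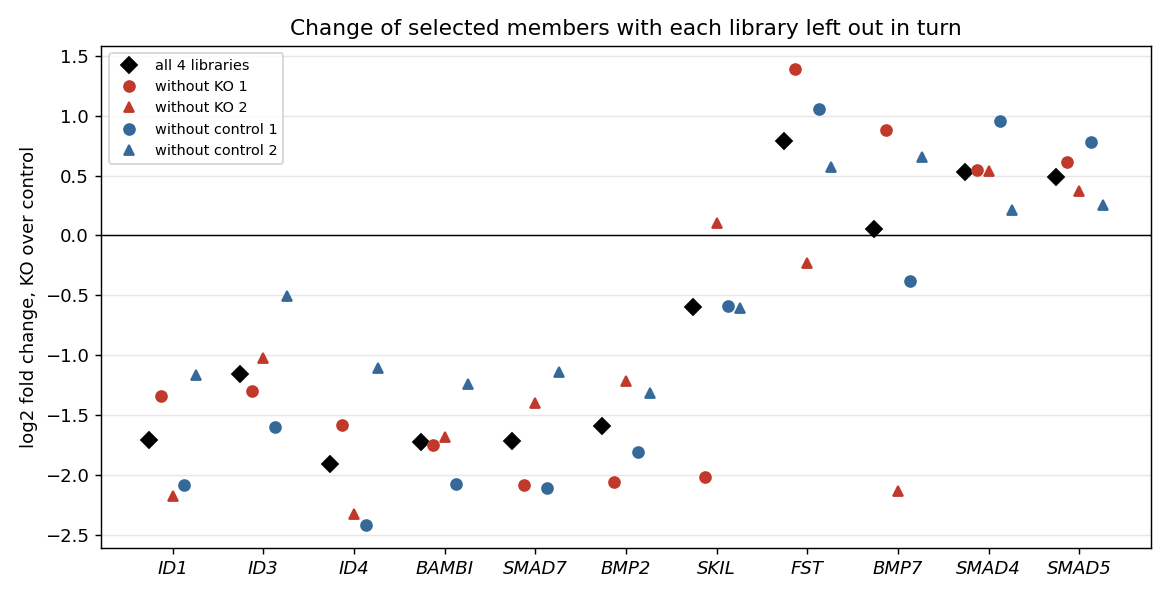
Log2 fold change of KO over control for 11 members with all 4 libraries (black diamonds) and with each library left out in turn (red for a KO library, blue for a control library). ID1, ID3, ID4, BAMBI, SMAD7 and BMP2 stay below 0 throughout, while SKIL, FST and BMP7 change sign when KO 2 is left out.

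Markers of other lineages varied between libraries, and some were highest in control 2, as the ID genes were. Of 8 trophoblast and amnion markers 5 had enough reads to be tested. EdgeR called 0 of them, with 0.0263% of all genes called. At an unadjusted p under 0.05 there were 2, GATA2 and CDX2, against 4.06% of all genes. DESeq2 called GATA2, with 0.357% of all genes it tested called. Both rest on few reads in most libraries, and CDX2 had 16 reads in control 1 and 11 in control 2. GATA2 had 0.109 CPM in KO 1 and 0.146 CPM in KO 2, against 0.504 CPM in control 1 and 8.58 CPM in control 2. HAND1 had 0 reads in KO 1 and 3 reads in KO 2, against 1 read in control 1 and 79 reads in control 2. TFAP2A had 0.182 CPM in KO 1 and 0.965 CPM in KO 2, against 0.186 CPM in control 1 and 3.32 CPM in control 2. ISL1 had 4 reads in KO 1 and 0 reads in KO 2, against 10 reads in control 1 and 24 reads in control 2. KRT7, GATA3 and CDX2 were not highest in control 2. KRT7, the largest part of the list's sum, had 17.8 CPM in KO 1 and 16.6 CPM in KO 2, against 13.7 CPM in control 1 and 13.8 CPM in control 2. GATA3 had 0 CPM in KO 1 and 1.52 CPM in KO 2, against 0.212 CPM in control 1 and 0.929 CPM in control 2. The summed level of this list was 18.2 CPM in KO 1 and 19.3 CPM in KO 2, against 15.3 CPM in control 1 and 29.9 CPM in control 2, with CGA at 0 in every library and CDX2 at 0 in both KO libraries. Primitive streak and endoderm markers summed to 3.78 CPM in KO 1 and 0.76 CPM in KO 2, against 4.72 CPM in control 1 and 7.63 CPM in control 2. Of the 4 tested, TBXT and MIXL1 were lower in both KO libraries, where 16.3% of all genes were. TBXT had 10 reads in KO 1 and 2 in KO 2, against 27 in control 1 and 24 in control 2. MIXL1 had 26 reads in KO 1 and 15 in KO 2, against 66 in control 1 and 68 in control 2. The part of such cells in the levels of the ID genes and BAMBI was not tested.

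Neuroectoderm markers summed to 632 CPM in KO 1 and 1146 CPM in KO 2, against 588 CPM in control 1 and 912 CPM in control 2, almost all from NES and OTX2. Fibroblast and stromal markers summed to 581 CPM in KO 1 and 1129 CPM in KO 2, against 557 CPM in control 1 and 900.2 CPM in control 2, with DCN at 0 in 3 of the 4 libraries. THY1 was the largest part of this sum in every library but KO 2. It had 429 CPM in KO 1 and 337 CPM in KO 2, against 296 CPM in control 1 and 376 CPM in control 2. COL1A1 had 46.8 CPM in KO 1 and 552 CPM in KO 2, against 128 CPM in control 1 and 300.4 CPM in control 2. In both lists the sum in replicate 2 of each group stood above that in replicate 1, while THY1 alone was lower in KO 2 than in KO 1.

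Ligands of the Nodal/activin branch were low in abundance, and 3 of 6 members of this group were lower in both KO libraries, where 16.3% of all genes were. INHBA, whose product forms activin A, had 2.22 CPM in KO 1 and 0.556 CPM in KO 2, against 3.87 CPM in control 1 and 5.26 CPM in control 2 (log2 fold change -1.77 ± 0.66, edgeR adjusted p = 0.997). INHBB, the subunit of activin B, had 10 reads in KO 1 and 0 in KO 2, against 33 reads in control 1 and 93 reads in control 2 (log2 fold change -3.38 ± 1.07, edgeR adjusted p = 0.997). GDF3, a Nodal-related ligand of pluripotent cells, had 4.66 CPM in KO 1 and 1.23 CPM in KO 2, against 8.93 CPM in control 1 and 5.01 CPM in control 2 (log2 fold change -1.28 ± 0.64, edgeR adjusted p = 0.997). KO 1 reached 92.9% of control 2 for GDF3, so the gap between the groups was slight. These 3 values depend on which KO library is kept. Without KO 1, INHBA had -3.02 (edgeR adjusted p = 0.00253), GDF3 had -2.49 (edgeR adjusted p = 0.00337) and INHBB, then with 0 reads in KO, was called too (edgeR adjusted p = 0.000898). Without KO 2 none was called, with log2 fold changes of -1.04 for INHBA, -0.58 for GDF3 and -2.24 for INHBB. INHBE, known from liver, had 5.67 CPM in KO 1 and 5.21 CPM in KO 2, against 4.48 CPM in control 1 and 19.7 CPM in control 2, so that control 2 alone stood apart and the log2 fold change of -1.15 turned to 0.28 without it.

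TDGF1, also called CRIPTO, is the coreceptor that Nodal needs, and it was the most abundant member per length by the mean over the 4 libraries. Its level was 176 RPKM (CPM per kilobase of exon) in KO 1 and 111 RPKM in KO 2, against 179.8 RPKM in control 1 and 151 RPKM in control 2. In control 2 ID3 stood above TDGF1, at 198 RPKM. For TDGF1 the groups overlapped, with a log2 fold change of -0.20 and an interval from -0.87 to 0.47. Its pseudogene TDGF1P3 held 562 reads in KO 1 and 435 reads in KO 2, against 651 reads in control 1 and 675 reads in control 2, so some reads of TDGF1 may be split with it. Next in mean RPKM over the 4 libraries came ID3 (105), ID1 (71.4), FSTL1 (48.5) and ID2 (24.5), and ID3 and ID1 overlapped in their ranges of libraries.

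FST, or follistatin, binds and neutralises activin. It had 23.5 CPM in KO 1 and 71.8 CPM in KO 2, against 32.01 CPM in control 1 and 23.1 CPM in control 2. KO 2 alone was high (log2 fold change 0.79 ± 0.49, edgeR adjusted p = 0.997), and without KO 2 the value was -0.23, while without KO 1 it was 1.39 (edgeR adjusted p = 0.00332). The ligand TGFB2 had the highest log2 fold change of all members, 2.34 ± 0.95 (edgeR adjusted p = 0.997), from 0.40 CPM in KO 1 and 3.07 CPM in KO 2, against 0.318 CPM in control 1 and 0.394 CPM in control 2. It too rests on KO 2, since without that library the value was 0.17, and without KO 1 it was 3.11 (edgeR adjusted p = 0.000629). TGFB1 had 4.95 CPM in KO 1 and 19.4 CPM in KO 2, against 11.02 CPM in control 1 and 13.5 CPM in control 2. TGFB3 stayed between 0.716 and 0.836 CPM in all 4 libraries.

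No receptor was called, and their log2 fold changes lay between -0.33 and 0.76. The type I receptor of TGF-beta, TGFBR1, had 87.5 CPM in KO 1 and 71.2 CPM in KO 2, against 71.1 CPM in control 1 and 60.8 CPM in control 2. TGFBR2, the type II receptor, and TGFBR3, the coreceptor betaglycan, overlapped between the groups, with log2 fold changes of -0.33 and 0.29. ACVR1B, the type I receptor of activin and Nodal also called ALK4, had 51.4 CPM in KO 1 and 58.8 CPM in KO 2, against 38.3 CPM in control 1 and 42.9 CPM in control 2 (log2 fold change 0.44, interval from -0.18 to 1.06). The type II receptor ACVR2B was steady within each group, with 159 CPM in KO 1 and 155 CPM in KO 2, against 137 CPM in control 1 and 138 CPM in control 2 (log2 fold change 0.19, interval from -0.38 to 0.76). Its counterpart ACVR2A overlapped between the groups (0.19).

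Among BMP receptors, ACVR1, or ALK2, was the one lower in both KO libraries, with 15.5 CPM in KO 1 and 16.3 CPM in KO 2, against 19.0 CPM in control 1 and 21.0 CPM in control 2 (log2 fold change -0.33, interval from -1.06 to 0.40). BMPR1A, the main type I receptor gene for BMP by abundance here, had 8.31 RPKM in KO 1 and 6.82 RPKM in KO 2, against 10.3 RPKM in control 1 and 8.004 RPKM in control 2. BMPR1B was higher in both KO libraries but at 16 to 46 reads per library. BMPR2, the type II receptor, had 16.9 CPM in KO 1 and 34.2 CPM in KO 2, against 16.2 CPM in control 1 and 17.1 CPM in control 2.

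Of the BMP ligands, BMP2 was lower in both KO libraries. It lies at chromosome 20, 6767664 to 6780280, on the plus strand, and had 7.27 CPM in KO 1 and 4.04 CPM in KO 2, against 14.0 CPM in control 1 and 19.9 CPM in control 2. The higher KO library stood at 52.0% of the lower control (log2 fold change -1.59 ± 0.44, edgeR adjusted p = 0.997, DESeq2 adjusted p = 0.115), and edgeR called it without KO 1 (-2.05, adjusted p = 0.00148). BMP4 and BMP7 split the KO group. BMP4 had 1.38 CPM in KO 1 and 6.90 CPM in KO 2, against 4.40 CPM in control 1 and 6.11 CPM in control 2. BMP7 had 3.05 CPM in KO 1 and 24.5 CPM in KO 2, against 8.80 CPM in control 1 and 18.2 CPM in control 2. Its log2 fold change of 0.05 turned to -2.14 without KO 2, where edgeR called it (adjusted p = 0.00701).

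NOG and CHRD, which bind BMPs and keep them from their receptors, had few reads. NOG, or noggin, had 2 reads in KO 1 and 12 in KO 2, against 10 in control 1 and 7 in control 2, and was the member with too few reads to be tested. CHRD, or chordin, had 21 reads in KO 1 and 65 reads in KO 2, against 27 reads in control 1 and 53 reads in control 2. FSTL1, a secreted follistatin-like glycoprotein, was abundant and overlapped between the groups, with 304 CPM in KO 1 and 547 CPM in KO 2, against 361 CPM in control 1 and 479 CPM in control 2.

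All 6 signal-carrying SMADs had a positive log2 fold change, under every scaling tried, and 5 of them were higher in both KO libraries, where 15.8% of all genes were. SMAD3 changed sign with 1 library left out. None was called by edgeR, DESeq2 or limma-voom, and none had an unadjusted p under 0.05 in edgeR. SMAD4, the shared partner, had 99.4 CPM in KO 1 and 99.3 CPM in KO 2, against 85.7 CPM in control 1 and 51.5 CPM in control 2 (log2 fold change 0.53 ± 0.31, edgeR adjusted p = 0.997). The KO libraries agreed closely while the controls differed, and without control 2 the value was 0.21. SMAD5 had 78.7 CPM in KO 1 and 92.7 CPM in KO 2, against 71.8 CPM in control 1 and 50.3 CPM in control 2 (0.49, interval from -0.17 to 1.15).

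SMAD1 had 18.6 CPM in KO 1 and 17.3 CPM in KO 2, against 16.2 CPM in control 1 and 9.82 CPM in control 2. SMAD2 ranged from 50.3 to 63.2 CPM over the 4 libraries with a log2 fold change of 0.19. SMAD9 had 32 to 56 reads per library. SMAD3, the exception, had 11.02 CPM in KO 1 and 29.5 CPM in KO 2, against 12.7 CPM in control 1 and 18.6 CPM in control 2. Of the ubiquitin ligases that turn over SMADs and receptors, SMURF2 had 40.7 CPM in KO 1 and 41.6 CPM in KO 2, against 33.2 CPM in control 1 and 24.5 CPM in control 2, and SMURF1 stayed between 43.4 and 49.5 CPM in all 4 libraries.

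The KO libraries differed from each other more than the controls did, in the pathway as in all genes. KO 1 and KO 2 were over 2-fold apart for 15 of 46 members (32.6%) and for 26.9% of all genes. Control 1 and control 2 were that far apart for 8 members (17.4%) and 11.98% of all genes. Of the 15 members, 11 were higher in KO 2, among them TGFB2, BMP7, BMP4, CER1, LEFTY2, TGFB1 and FST. The other 4 were lower in KO 2, namely INHBA, GDF3, SKIL and INHBB. Over all genes that far apart, 2449 were higher and 2660 were lower in KO 2.

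ID1 lies on the long arm of chromosome 20, and the median of its neighbours was positive. Within 1 Mb of ID1, 21 other genes were tested, with a median log2 fold change of 0.46, 8 of them higher and 0 lower in both KO libraries, where 15.8% and 16.3% of all genes were. Within the same distance, neighbours of BAMBI (7 genes, median -0.11), ID4 (3 genes, -0.02), ID3 (29 genes, 0.02), SMAD7 (11 genes, 0.11) and SKIL (15 genes, -0.03) had medians near 0. For BMP2, the 9 tested neighbours had a median of -0.65 and 5 of them were lower in both KO libraries, against the same 16.3% of all genes.

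Of 69 other genes of the pathway, 58 had enough reads to be tested and 0 were called by edgeR, with 0.0263% of all genes called. A single one, THBS1, had an unadjusted p under 0.05 in edgeR. That is 1.72% of the 58, below the 4.06% of all genes. DESeq2 called THBS1, with 0.357% of all genes it tested called, while limma-voom called 0 of the list. The median log2 fold change of the 58 was 0.07, and 10 had both KO libraries below the controls and 11 had both above. Together these are 36.2% of the 58, near the 32.2% of all genes. THBS1 encodes thrombospondin-1, a matrix protein that can activate latent TGF-beta. It had 33.7 CPM in KO 1 and 18.3 CPM in KO 2, against 90.9 CPM in control 1 and 533 CPM in control 2 (log2 fold change -3.59 ± 0.86, edgeR adjusted p = 0.997). RNF111, or Arkadia, a ubiquitin ligase that degrades SMAD7 and SnoN, had 34.3 CPM in KO 1 and 33.1 CPM in KO 2, against 24.5 CPM in control 1 and 18.4 CPM in control 2 (log2 fold change 0.65 ± 0.31). INHA, the inhibin alpha subunit, had a log2 fold change of -1.23 on 11 and 18 reads in KO, against 40 and 41 reads in control. BMP6 had one of -1.23 on 45 and 31 reads in KO, against 71 and 143 reads in control.

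Some counts can be touched by overlapping annotation. LEFTY1 shares 882 exon bases with the same-strand gene AL117348.2, TGFB2 shares 1371 with TGFB2-OT1 and SMAD4 shares 967 with AC091551.1 in GENCODE 29, and HTSeq can leave reads in such stretches unassigned. A further group of 14 members, NODAL, ID2 and PMEPA1 among them, shares exon bases with a gene on the opposite strand, and such reads are separated only if the counting used strand.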

How the data were processed

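The authors deposited raw counts of reads for each gene in 4 libraries. Trizol extraction, a column clean-up with DNase I and a TruSeq stranded mRNA preparation are recorded per the labels' protocols. The submitters' processing notes list HTSeq 0.11.0, STAR 2.6.0a, cutadapt 1.8.1 and FastQC 0.11.7 with GRCh38 (hg38). Which annotation and strand option HTSeq was run with is not given in the sources used here. The labels also mention quantile normalisation, but the deposited counts are whole numbers with unequal totals.

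Reads given to no gene, 14.4% to 20.3% of counted alignments, were left out. Identifiers were matched without version to GENCODE 29 (93.8% matched), whose exon unions gave lengths for RPKM. Genes passing edgeR's filterByExpr (minimum count 10) numbered 19027. TMM factors scaled the CPM values (counts per 1000000), and edgeR 4.0.16 (R 4.3.3; quasi-likelihood F test, robust) compared KO with control, two-sided, at an adjusted p (Benjamini-Hochberg) below 0.05. The SE is the log2 fold change over the square root of F. Arm means per library used log2 CPM with a prior count of 2. The common dispersion was 0.132. Alternatives used DESeq2 1.42.0 and limma 3.58.1.

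Tested on counts simulated from these libraries, edgeR recovered 7 of 50 genes changed 2-fold and 38 of 50 changed 4-fold among 18336. It recovered 48 of 50 changed 8-fold and 50 of 50 changed 32-fold, with 15 unchanged genes called. Changes near 2-fold are thus mostly missed at this depth and spread. The simulation changed 200 genes, whereas 5 were called in the measured table, so its recovered shares need not hold there. THBS1, with a log2 fold change of -3.59, was not called by edgeR in the measured table. Chi-square per degree of freedom was 77.1 between the KO libraries and 36.2 between controls, far above sampling noise.

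The members and lists were chosen with earlier results of these data known. Full statistics were given to called members, to up to 12 members with groups apart and the smallest p, and to the arm readouts. Of the other pathway genes the called ones were to be named, or else the 4 with groups apart and the smallest p. Promoters were found in RefSeq for 39 members (69 windows), and not for BMP2, BMP7, INHBE, LEFTY1, LEFTY2, NOG, SKI and TDGF1.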

Additional observations from a re-analysis of the deposited data

How the results depend on the processing

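Pathway members called numbered 0 with RLE, upper-quartile and library-size scaling, limma-voom, the legacy quasi-likelihood fit, either other filter and a threshold of 0.01, but 4 with DESeq2, 3 with the replicate block (BAMBI, ID1 and ID4) and 0 to 12 with each library left out in turn. Genes called over the whole table numbered 5 in the main test and 0 with upper-quartile scaling, library size only, limma-voom, the threshold of 0.01 and a filter on mean CPM (1 or more). They numbered 1 with the legacy fit, 8 with no filter, 60 with DESeq2, 76 with the replicate block and 3 to 1096 with a library left out (1096 without KO 1 and 188 without KO 2). The cause of these differences was not tested. SLC35F2 was called with DESeq2 (-1.65) and with the replicate block (-1.63), and ranged from -1.92 to -1.31 with a library left out, called without KO 1 (adjusted p = 0.00104) and without KO 2 (adjusted p = 0.0243) and not without either control. No label says that a replicate number marks a shared culture. Same-numbered libraries deviated together across genes (r = 0.33 over 19027 genes), which with 2 pairs does not establish pairing. The BMP arm median ranged from -1.84 to -0.81 and the Nodal/activin arm median from -0.93 to -0.33 with a library left out, and both moved by less than the replicate spread under the other settings. Members with groups apart numbered 20 to 22 over the scalings. Library size only moved the median of all genes from 0.03 to -0.10.

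Of the members, 17 changed sign under some setting. With upper-quartile scaling TGFB1 was -0.084, TGFB3 -0.029, BMP7 -0.048 and FSTL1 -0.072, and with library size only they were -0.15, -0.074, -0.13 and -0.13. With limma-voom LEFTY2 was -0.15, TGFB1 -0.26, BMP7 -0.45 and FSTL1 -0.023, and with the replicate block they were -0.016, -0.27, -0.45 and -0.028. TGFB1 was -0.0056 with DESeq2, -0.0063 with the legacy fit and -0.044 with the mean CPM filter, where BMP7 was -0.0047 and FSTL1 -0.029. With a library left out the ranges were -0.93 to 0.0039 (NODAL), -1.85 to 0.28 (INHBE), -0.56 to 0.095 (TDGF1), -1.24 to 0.86 (LEFTY2), -0.69 to 1.47 (CER1) and -0.23 to 1.39 (FST). They were -1.30 to 0.68 (TGFB1), -0.026 to 0.16 (TGFB3), -0.016 to 0.39 (ACVR2A), -1.92 to 0.41 (BMP4), -2.14 to 0.88 (BMP7), -0.52 to 0.92 (CHRD) and -0.46 to 0.39 (FSTL1). They were -0.51 to 0.93 (SMAD3), -0.13 to 0.056 (SMURF1), -2.01 to 0.11 (SKIL) and -1.23 to 0.18 (ID2). None of these values was called except SKIL and FST without KO 1 and BMP7 without KO 2.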
